A study of Mus musculus with 11 samples.

Results

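Attached RT101 cells were compared with attached bFGF-treated JB6 cells, using 5 of the 11 arrays of the series: 2 of RT101 monolayer and 3 of bFGF-JB6 monolayer. JB6 is a line of mouse epidermal cells widely used as a model of tumour promotion, and the bFGF-treated cells were of a single parental clone, 41-5A. RT101 is a tumour-forming variant of JB6 and received no growth factor. Both were grown in Eagle's minimal essential medium with 4% fetal bovine serum. Basic fibroblast growth factor (bFGF) was given at 10 ng/ml to the clone 41-5A cells in soft agar. For the treated monolayers the labels state neither a dose nor a duration. RT101 arrays therefore differ from bFGF-JB6 arrays in line and in treatment together, and these cannot be told apart. The other 6 arrays were 3 of RT101 colonies and 3 of bFGF-JB6 colonies, taken from agar on day 7. They again differed in line and treatment together, and gave a comparison with no array in common. Whether bFGF exposure in agar matched that of the monolayers is not stated. The term line difference is used below for RT101 minus bFGF-JB6, line and treatment together. Whether replicates were independent cultures is not stated, so the p-values reflect only the spread among these samples, and that spread may be technical.

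Each array reported a log2 signal for 22626 probe sets other than controls, and 12393 genes were tested through the brightest probe set that named that gene alone. Array medians of the monolayers ran from 5.82 to 5.91 and lower quartiles from 3.78 to 3.90. Pearson correlations across probe sets were 0.9948 to 0.9975 among bFGF-JB6 monolayers, 0.9965 between the RT101 monolayers and 0.951 to 0.9539 between the groups. On bFGF-JB6 monolayer replicate 1 the 3' probe set of the Gapdh control exceeded the 5' one by 0.19, against -0.08 to -0.01 on most arrays. One colony array, bFGF-JB6 replicate 3, showed the same at 0.35. Without these arrays 6 of the 231 genes looked at by name gained a call between the monolayers and 3 lost it. Values are given for some of them. A lower signal in such bulk RNA can mean fewer expressing cells or less RNA per cell, which cannot be told apart.

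At a Benjamini-Hochberg adjusted p of 0.05 in limma, 5504 genes (44.4% of those tested) differed between the monolayers. Of these 2881 (23.2%) were higher and 2623 (21.2%) lower in RT101. Large differences lay more often on the lower side. At 2-fold, 660 genes (5.33%) were higher and 858 (6.92%) lower. At 4-fold the counts were 79 and 257, and at 16-fold 6 and 44. The median difference over all genes was 0.05 on the log2 scale. The processing brings arrays to a common distribution, so this median cannot show whether all genes shifted together. Without the arrays of raised 3' signal 3023 genes were higher and 2648 lower.

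Genes of an on/off kind were defined by level as well as by the test. Such a gene was called, lay at or above the array median on every array of one line, and lay at or below the lower quartile on every array of the other. These arrays carry no detection calls, so "off" means only that the signal did not exceed the lower quartile of the array. The rule found 31 genes, 7 on in RT101 (0.0565% of genes tested) and 24 on in bFGF-JB6 (0.194%).

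**Figure D1:**
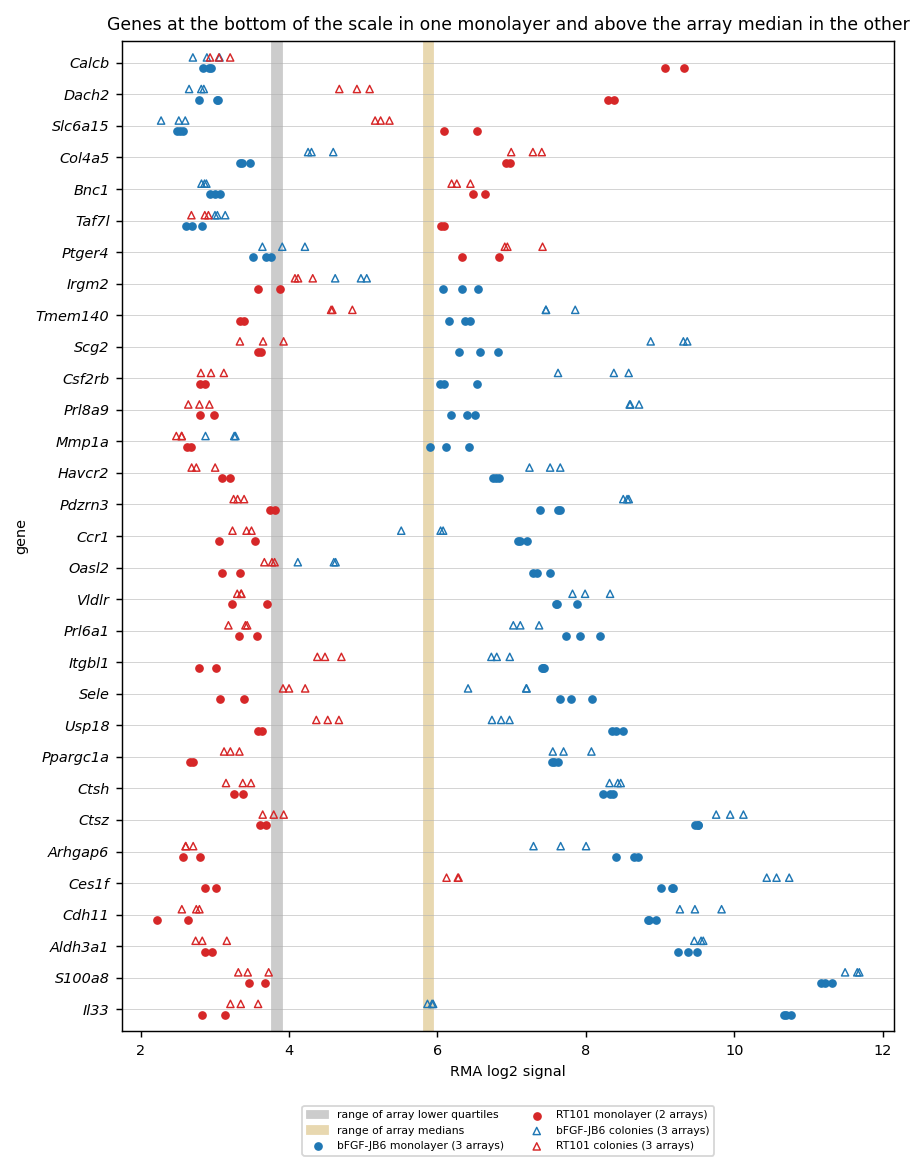
RMA log2 signal (horizontal axis) of the 31 on/off genes, 1 point per array, circles for monolayers and triangles for colonies, blue for bFGF-JB6 and red for RT101; bands mark the ranges of array lower quartiles and medians. In each row the circles of one line lie in or above the band of medians and those of the other in or below the band of lower quartiles, while the triangles of Calcb and Taf7l lie together below the lower quartiles. The triangles of Mmp1a also lie below the lower quartiles.

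The 7 genes on in RT101 encode a neuropeptide, a transporter, a collagen chain, a prostaglandin receptor and regulators of transcription. Calcb, which encodes the beta form of calcitonin gene-related peptide, read 9.33 and 9.07 on the RT101 arrays. On the bFGF-JB6 arrays it read 2.84, 2.94 and 2.93. The difference was 6.29 (SE 0.12, limma adjusted p = 1.61e-13), the largest of the 7. Dach2, a dachshund-family transcription cofactor of eye, limb and muscle development, read 8.30 and 8.38 in RT101 against 2.79, 3.03 and 3.04 in bFGF-JB6. Its difference was 5.38 (SE 0.13, limma adjusted p = 8.60e-13). Both genes thus lay at the bottom of the scale in bFGF-JB6 and well above the array median in RT101, with no overlap.

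Bnc1 encodes basonuclin, a zinc finger protein known from proliferating keratinocytes and germ cells. It read 6.49 and 6.64 in RT101 against 3.06, 2.93 and 3.01 in bFGF-JB6, a difference of 3.56. Taf7l, a testis form of a TFIID subunit, read 6.05 and 6.09 against 2.69, 2.83 and 2.62, a difference of 3.36. Both were only just above the array median in RT101. Slc6a15, a transporter of neutral amino acids, read 6.10 and 6.53 against 2.49, 2.53 and 2.57. Col4a5, a chain of basement membrane collagen, read 6.93 and 6.98 against 3.33, 3.47 and 3.36. Ptger4, the EP4 receptor of prostaglandin E2, read 6.83 and 6.34 against 3.76, 3.52 and 3.69, and was the member nearest to the lower quartile on its off side.

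Among the 24 genes on in bFGF-JB6, the differences ran from 2.58 for Irgm2 to 7.73 for Il33 in size. Il33, an alarmin held in the nucleus and released on damage, read 10.76, 10.68 and 10.70 in bFGF-JB6 and 2.83 and 3.13 in RT101. The limma difference was -7.73 (SE 0.12, adjusted p = 4.17e-14). S100a8, a calcium-binding alarmin of myeloid cells and stressed epidermis, read 11.22, 11.32 and 11.17 against 3.67 and 3.46, a difference of -7.67. These were among the brightest signals of the bFGF-JB6 arrays and lay at the bottom of the RT101 arrays.

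Cdh11 encodes a cadherin of mesenchymal cells. It read 8.84, 8.86 and 8.94 in bFGF-JB6 and 2.23 and 2.64 in RT101, a difference of -6.45 (SE 0.16, limma adjusted p = 1.34e-12). Aldh3a1, an aldehyde dehydrogenase, read 9.50, 9.24 and 9.37 against 2.87 and 2.97, and the carboxylesterase gene Ces1f read 9.16, 9.01 and 9.17 against 3.01 and 2.87. Arhgap6 read 8.71, 8.41 and 8.65 against 2.58 and 2.80. All of these had RT101 arrays below the lower quartile by a wide margin.

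Other on/off genes of bFGF-JB6 fell into a few kinds. The lysosomal protease genes Ctsz and Ctsh differed by -5.85 and -4.99. Ctsl, a cathepsin gene outside the on/off set, differed by -0.78 and read 12.93 and 12.97 in RT101. The coactivator gene Ppargc1a, known for its part in mitochondrial biogenesis, read 7.57, 7.54 and 7.63 against 2.70 and 2.67, a difference of -4.90. Placental prolactin-family genes Prl6a1 and Prl8a9 differed by -4.50 and -3.47.

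Surface and signalling molecules made up much of the rest. Sele (E-selectin), Vldlr (a lipoprotein receptor that also binds reelin), Ccr1 (a chemokine receptor), Havcr2 (an immune checkpoint receptor) and Csf2rb (the shared chain of several cytokine receptors) differed by -4.61, -4.23, -3.83, -3.64 and -3.38. Itgbl1 differed by -4.52, the ubiquitin ligase gene Pdzrn3 by -3.78, Mmp1a by -3.50, the granin gene Scg2 by -2.96 and Tmem140 by -2.95. Selp (P-selectin) did not meet the rule, with 9.01, 9.03 and 8.93 against 4.50 and 4.36, above the RT101 lower quartiles of 3.90 and 3.80.

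The on/off levels were set on monolayer arrays alone, although the colony arrays entered the choice of the brightest probe set and the variance of the model. The colony arrays gave the same call for 29 of the 31 on/off genes. All 24 genes on in bFGF-JB6 were called lower in RT101 colonies, where 20.7% of all genes were. For Mmp1a this was a difference between levels below the lower quartile. It read 3.26, 2.87 and 3.28 in bFGF-JB6 colonies and 2.48, 2.55 and 2.55 in RT101 colonies. Of the 7 on in RT101, 5 were called higher in RT101 colonies, where 22.7% of all genes were. By the full on/off rule 12 of the 24 were also on/off between colonies: Aldh3a1, Arhgap6, Cdh11, Csf2rb, Ctsh, Havcr2, Pdzrn3, Ppargc1a, Prl6a1, Prl8a9, S100a8 and Vldlr. Of the 7, this held for Bnc1, which read 6.26, 6.19 and 6.44 in RT101 colonies and 2.89, 2.86 and 2.82 in bFGF-JB6 colonies.

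The exceptions were Calcb and Taf7l. Calcb read 2.94, 3.21 and 3.06 in RT101 colonies and 2.70, 2.89 and 3.06 in bFGF-JB6 colonies, a difference of 0.18 (limma adjusted p = 0.223). Taf7l differed by -0.24 (limma adjusted p = 0.0473), opposite in sign to the monolayers, with all colony arrays below the lower quartile. A test of the difference between the colony and the monolayer line difference was called for 5 of the 7 and 16 of the 24. Over all genes it was called for 27.7%. The monolayer values that chose these genes enter that test, so a larger share carries no weight on its own. Il33 was among the genes called in that test: it read 5.87, 5.94 and 5.93 in bFGF-JB6 colonies, so its difference shrank to -2.53, and the interaction was 5.20 (SE 0.16).

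The genes with the largest differences included several outside the on/off set. Among the 12 largest decreases these were Mmp3, Glipr1, Slpi, Dcn, Mgst1 and Lgals3. Mmp3, which encodes the secreted protease stromelysin-1, read 11.12, 11.12 and 11.03 in bFGF-JB6 and 4.62 and 4.82 in RT101, a difference of -6.37. Dcn, the matrix proteoglycan decorin, read 10.60, 10.62 and 10.67 against 4.33 and 4.69. Slpi, a secreted inhibitor of leukocyte proteases, fell from 12.97, 12.99 and 12.94 to 6.74 and 6.93, a level still above the RT101 array medians. Lgals3 (galectin-3) read 11.87, 11.96 and 11.95 against 5.93 and 5.88.

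Glipr1 differed by -6.14, with RT101 arrays at 4.65 and 3.87 and bFGF-JB6 arrays at 10.23, 10.45 and 10.52. Mgst1, a membrane glutathione transferase gene, read 9.77, 9.95 and 9.88 against 3.82 and 3.86. A second and dim Mgst1 probe set did not pass, at -0.14.

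Among the 12 largest increases, Car6, Ptx3, Syce2, Prss23, Ogn, Adm and Cth were outside the on/off set. Car6, a secreted carbonic anhydrase of saliva, read 10.97 and 10.85 in RT101 and 4.03, 4.07 and 4.14 in bFGF-JB6. Its difference of 6.84 (SE 0.13, limma adjusted p = 9.79e-14) was the largest increase of all genes tested. Ptx3, a soluble pattern recognition protein, read 9.45 and 9.41 against 3.83, 4.13 and 4.05. Syce2, a protein of the meiotic synaptonemal complex, read 9.02 and 9.01 against 3.97, 3.90 and 3.83. Each of the 3 was near or just above the lower quartile in bFGF-JB6 and above the upper quartile of the array in RT101.

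Ogn, which encodes the matrix proteoglycan osteoglycin, read 7.93 and 7.94 in RT101 against 3.85, 4.20 and 4.15, so the decorin and osteoglycin genes moved in opposite directions. Adm, the gene of the vasodilator peptide adrenomedullin, read 7.86 and 7.82 against 4.23, 4.02 and 3.76. Prss23 read 8.28 and 8.30 against 4.45, 4.26 and 4.14. In colonies Syce2, Ogn, Adm and Prss23 were called higher in RT101 too, by 5.39, 4.94, 3.58 and 2.59. Car6 was not, at -0.05 (limma adjusted p = 0.758), and Ptx3 differed by 0.46.

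**Figure D2:**
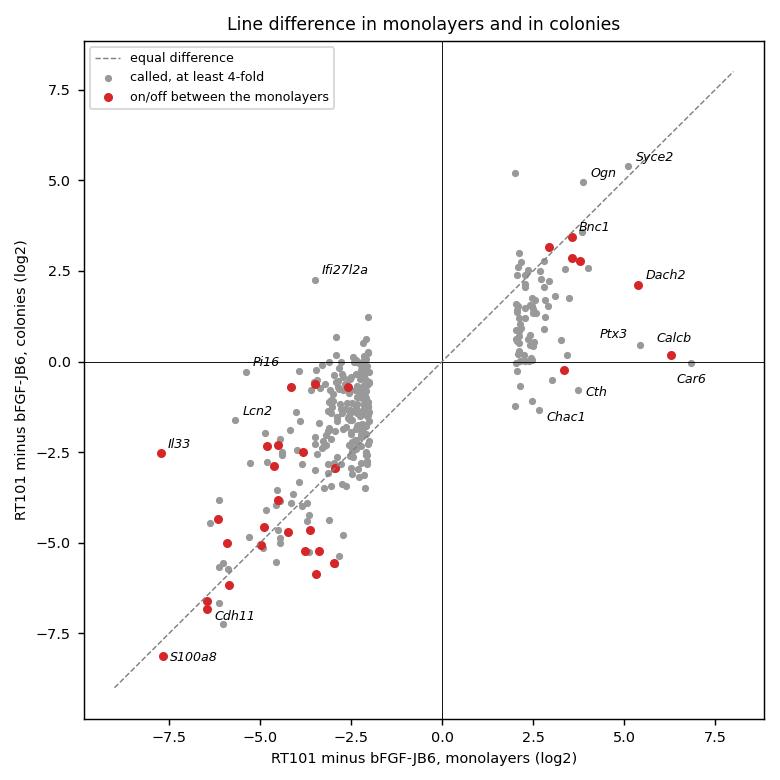
RT101 minus bFGF-JB6 log2 difference between monolayers (horizontal) and between colonies (vertical) for the 336 genes called with at least a 4-fold difference between monolayers, 1 point per gene, red for on/off genes; the dashed line marks equal differences. S100a8, Cdh11 and Syce2 lie near the line, Calcb and Car6 near 0 on the vertical axis, and Ifi27l2a at -3.50 and 2.25.

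Of the 257 genes at least 4-fold lower in RT101 monolayers, 229 (89.1%) were also called lower in RT101 colonies and 6 were called higher. Their median difference was -2.68 between monolayers and -1.75 between colonies. Of the 79 genes at least 4-fold higher, 60 (75.9%) were called higher in colonies and 7 lower, with medians of 2.46 and 1.32. The difference between growth conditions was itself called for 193 of the 257 and 63 of the 79. These genes were taken for their size in monolayers, so neither those 2 counts nor a smaller median in other arrays carries weight on its own.

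Lineage regulators are transcription factors that set and hold cell identity, such as Hox genes for position along the body, SOX, T-box and GATA factors for tissue type and Id proteins that block basic helix-loop-helix (bHLH) factors. Of 301 such genes measured in 7 lists, 55 were higher and 47 lower in RT101, with a median of 0.05. These shares are below those of all genes. At 2-fold 16 were higher and 21 lower, shares near the 5.33% and 6.92% of all genes. Dach2 was the only regulator of these lists that met the on/off rule. The others differed in degree, mostly between levels above the lower quartile.

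**Figure D3:**
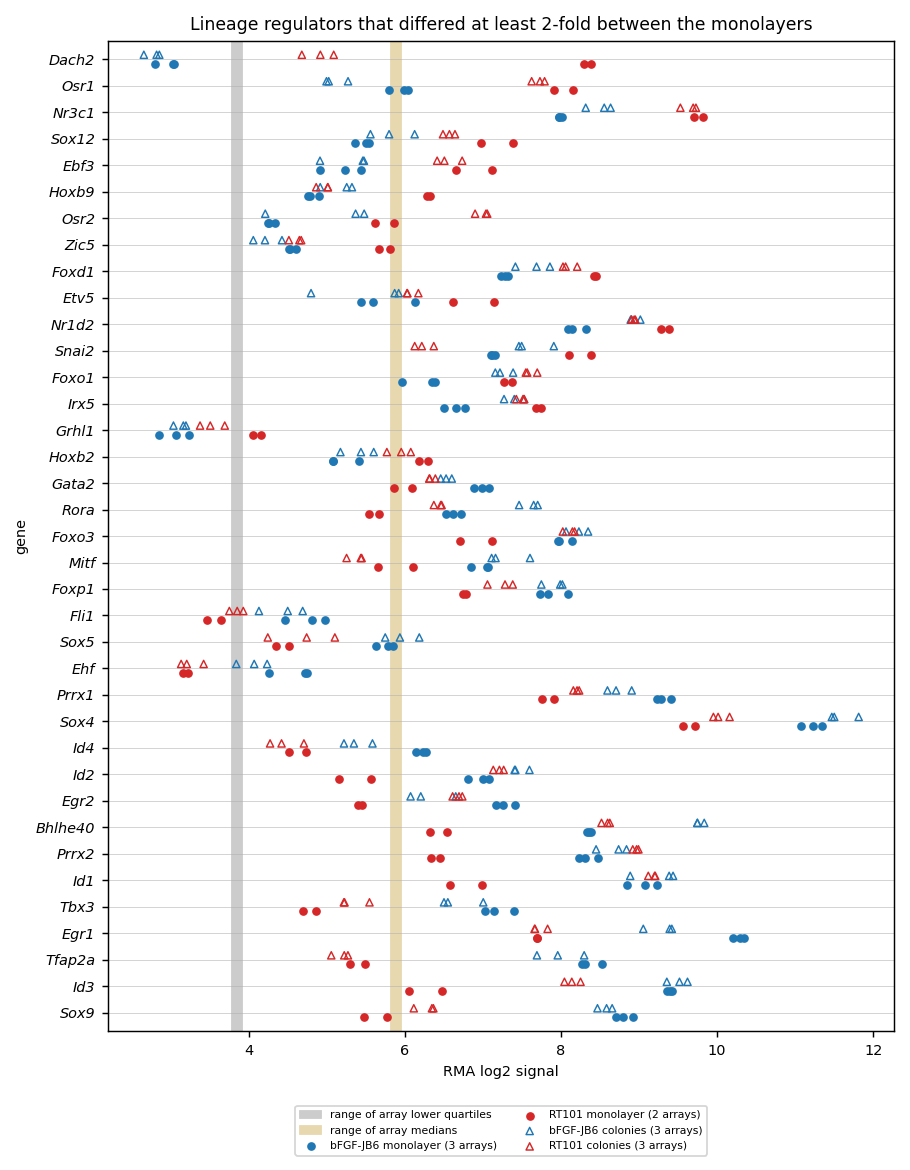
RMA log2 signal (horizontal axis) of the 37 lineage regulators that were called with at least a 2-fold difference between monolayers, 1 point per array, circles for monolayers and triangles for colonies, blue for bFGF-JB6 and red for RT101; bands mark array lower quartiles and medians. Sox9 and Id3 are at the bottom with blue circles near 9 and red circles near 6, and Dach2 is at the top with the widest gap.

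Sox9, a factor of cartilage, hair follicle and other progenitors, had the largest decrease among the regulators of these lists. It read 8.92, 8.80 and 8.71 in bFGF-JB6 and 5.47 and 5.77 in RT101, a difference of -3.19 (SE 0.12, limma adjusted p = 1.00e-10). Mycn and Ppargc1a, which are not in the lists, decreased more. In the list of SOX, T-box and GATA factors, 5 of 32 genes were higher and 5 lower, both below the shares of all genes (23.2% and 21.2%). Tbx3, a T-box repressor of limb and mammary development, read 7.40, 7.03 and 7.14 against 4.70 and 4.86. Sox4 differed by -1.58 and Sox5 by -1.33, while Sox12, of the same SoxC group as Sox4, differed by 1.71. Related factors thus moved in opposite directions.

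The bHLH list had 1 gene higher and 11 lower of 47, with a median of 0.02, so most members did not pass the test. The share lower was near the 21.2% of all genes. The lower members included Id3 at -3.12, Id1 at -2.27 and Id2 at -1.60. Id3 read 9.42, 9.36 and 9.40 in bFGF-JB6 and 6.06 and 6.48 in RT101. Bhlhe40, a repressor linked to the circadian clock, differed by -1.93. Tfap2a, an AP-2 factor of epidermis and neural crest kept in the same list, read 8.53, 8.27 and 8.31 against 5.48 and 5.29, a difference of -2.98. In colonies Id3 and Tfap2a kept their calls at -1.35 and -2.80. Id1 was not called there, at -0.06 (limma adjusted p = 0.795), nor was Id2, at -0.27 (limma adjusted p = 0.0712).

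Zinc finger and Runt factors were higher in 17 and lower in 9 of 59 genes (over all genes 23.2% and 21.2%). Without RT101 monolayer replicate 1 the count higher fell to 11. Osr1, an odd-skipped factor of kidney, heart and limb mesenchyme, read 7.90 and 8.15 in RT101 against 5.80, 5.98 and 6.04. Its relative Osr2 read 5.61 and 5.86 against 4.26, 4.25 and 4.33. Both were called in colonies, at 2.62 and 1.98. Ebf3 differed by 1.69. The immediate early factors Egr1 and Egr2 were lower, at -2.58 and -1.86.

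Of 31 Hox genes 8 were higher, near the 23.2% of all genes, and 3 lower, below the 21.2%, with a median of 0.03. The lower quartile was not exceeded by 12 in both lines. Hoxb9 read 6.28 and 6.32 in RT101 against 4.76, 4.79 and 4.90, and Hoxb2 read 6.30 and 6.17 against 5.07, 5.41 and 5.08. Hoxd8 was above the array median in both, at 8.16 and 8.18 against 7.60, 7.62 and 7.59. No Hox gene met the on/off rule, and only Hoxb9 and Hoxb2 differed by 2-fold or more. In colonies Hoxb9 differed by -0.20 (limma adjusted p = 0.149).

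Other homeobox and related regulators were higher in 16 of 65, near the 23.2% of all genes, and lower in 8, below the 21.2%. The mesenchymal factors Prrx2 and Prrx1 differed by -1.94 and -1.47, and the Iroquois factors Irx5 and Irx1 by 1.07 and 0.99. Forkhead factors were 4 higher and 4 lower of 28, both below the shares of all genes (23.2% and 21.2%). Foxd1 was at 1.16 and Foxo1 at 1.09, against Foxp1 at -1.12 and Foxo3 at -1.11. Among 39 nuclear receptors 4 were higher and 7 lower, also both below the shares of all genes. Nr3c1, the glucocorticoid receptor, read 9.82 and 9.71 in RT101 against 8.02, 7.98 and 7.97, a difference of 1.77, and Rora differed by -1.02.

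Of the 37 regulators that differed 2-fold, 26 had the same call between colonies, 15 of the 21 lower and 11 of the 16 higher. Among all genes tested, 20.7% were called lower and 22.7% higher between colonies. For 3 of the 37 the colony call was opposite. Snai2, a repressor of epithelial genes, read 8.38 and 8.11 in RT101 monolayers against 7.11, 7.15 and 7.10, a difference of 1.12, and differed by -1.38 between colonies. Prrx2 differed by 0.28 between colonies and Egr2 by 0.37.

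Mycn and Myc, which encode closely related growth-promoting factors, moved in opposite directions on their brightest probe sets. Mycn read 11.36, 11.25 and 11.24 in bFGF-JB6 and 5.55 and 5.24 in RT101, a difference of -5.89. Its other probe sets were dim and did not pass, at -0.22 and 0.09, so the value rests on 1 probe set. Myc read 7.75, 7.84 and 8.06 against 9.45 and 9.79, a difference of 1.74.

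The labelled epidermal origin was compared with marker levels. Of 52 keratinocyte and epithelial genes, 26 were below the lower quartile of the arrays in both lines and 6 were at or above the median in each. Cdh1 (E-cadherin) read 2.32 to 2.49 over the 5 arrays, Trp63 3.51 to 3.78, Krt14 3.57 to 3.82 and Krt5 4.79 to 5.29. None of these 4 differed by the main test, although Krt5 passed without bFGF-JB6 monolayer replicate 2, at 0.35 (limma adjusted p = 0.0331). Keratinocyte markers were called higher in 1 and lower in 4 genes, both below the shares of all genes (23.2% and 21.2%). Krt10 was the lower gene with the largest change, at -1.73. Krt10 read 6.95, 6.71 and 6.77 in bFGF-JB6, above the array medians, and 5.13 and 5.03 in RT101. Of the markers named, Cdh1, Trp63 and Krt14 were thus below the lower quartile in both attached lines, and Krt5 lay between the lower quartile and the median.

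Fibroblast and mesenchymal genes were the marker list with the highest levels. At or above the array median were 33 of 44 in bFGF-JB6 and 25 in RT101. Called lower in RT101 were 20 and higher 7 (over all genes 21.2% and 23.2%), with a median of -0.16. Vim (vimentin) read 13.12, 13.14 and 13.22 against 12.97 and 12.96, a difference of -0.19 (limma adjusted p = 0.0949) that passed with a variance fitted to the signal level (limma adjusted p = 0.00972) and without the arrays of raised 3' signal (limma adjusted p = 0.0481). Fn1 (fibronectin) differed by -2.10 and Mmp2 by -4.51, whereas Col3a1 differed by -0.42 between monolayers and by 1.97 between colonies. The 7 higher members included Ogn at 3.87, Acta2 at 2.12, Col6a2 at 1.71 and Col5a2 at 1.47.

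Markers of other lineages were mostly low. In each list named in this paragraph and the next, both shares were under those of all genes, 23.2% higher and 21.2% lower. Muscle genes had no member at or above the median in either line. Neural and neuroendocrine genes were 7 higher and 7 lower of 54. They included Ncam1 at 1.50 and Gap43 at -4.18, a growth cone protein that read 8.11, 8.03 and 7.64 in bFGF-JB6 and 4.08 and 3.41 in RT101. Germ-cell and placental genes were 9 higher and 3 lower of 47, with Ddx25, a helicase of spermatids, at 6.81 and 7.38 in RT101 against 4.30, 4.41 and 4.19. Of the imprinted genes 6 were higher and 5 lower of 39, Grb10 at 2.51 and Plagl1 at 1.88 among the higher.

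Macrophage and leukocyte genes were 4 higher and 5 lower of 32, melanocyte genes 0 higher and 2 lower of 11, and adipocyte genes 1 higher and 2 lower of 13. Ptprc (CD45), the defining leukocyte marker, read 2.33 to 2.62 on all 5 arrays, at the bottom of the scale. It passed the test at -0.25 without the arrays of raised 3' signal (limma adjusted p = 0.035). Cd53 read 7.15, 7.34 and 7.26 in bFGF-JB6 and 3.97 and 4.03 in RT101, and Cd68 differed by -2.71. Lyz2, a lysozyme of macrophages, was higher, by 0.85. The lower melanocyte genes were Gpnmb, a glycoprotein of pigment cells and macrophages, at -4.47, and Mitf at -1.11. Fabp4, a fatty acid binding protein of adipocytes and macrophages, read 9.73, 9.85 and 9.85 against 4.60 and 5.38. Lpl, another adipocyte gene, differed by -1.82 and Dgat2, which makes triglyceride, by 2.02. Xist differed by -0.57 and was bright in both lines, while the Y-linked gene Eif2s3y read 2.33 to 2.40.

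**Figure D4:**
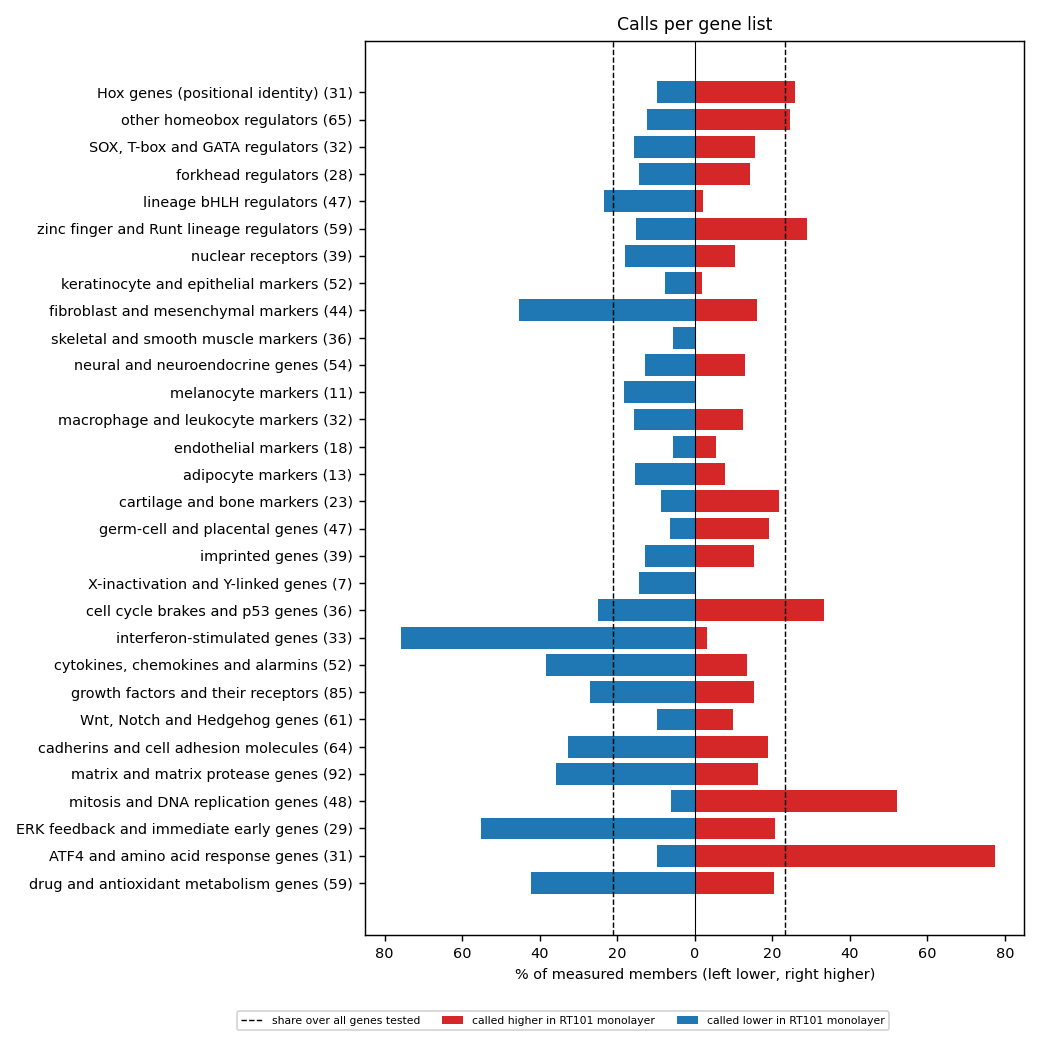
Share of the measured members of 30 gene lists called higher (red, to the right) or lower (blue, to the left) in RT101 monolayer, in percent, with the number measured in brackets; dashed lines mark the shares over all genes tested, 23.2% higher and 21.2% lower. Interferon-stimulated genes reach farthest to the left and ATF4 and amino acid response genes farthest to the right.

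Interferon-stimulated genes are switched on through receptors of interferons, and many carry a short promoter element (the interferon-stimulated response element, ISRE). Of 33 measured, 25 were lower in RT101, where 21.2% of all genes were, and 1, Ifit2, was higher. Their median was -1.94 against 0.05 for all genes. At or above the array median were 21 in bFGF-JB6 and 6 in RT101. Usp18, which removes the ubiquitin-like protein ISG15, read 8.35, 8.50 and 8.40 against 3.63 and 3.58. Bst2 (tetherin), which holds budding viruses at the cell surface, read 10.08, 10.08 and 9.97 against 5.49 and 5.70. Oasl2 differed by -4.16, Oas1a by -3.08 and the immunity GTPase Irgm2 by -2.58. Near-identical sequences among Oas genes can share probes, so single values in that family are uncertain.

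Among the 25 lower genes were components of interferon signalling itself. Stat2 read 6.48, 6.63 and 6.47 against 4.27 and 4.38, and Irf9 read 7.01, 7.15 and 7.19 against 4.84 and 5.26. The receptor chain genes Ifnar1 and Ifngr2, which are not in the list, differed by -1.09 and -1.73. Between colonies 15 members of the list were lower and 5 higher in RT101 (over all genes 20.7% and 22.7%), with a median of -0.30. Ifi27l2a changed sign, from -3.50 between monolayers to 2.25 between colonies.

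The ISRE was looked for as 2 copies of GAAA spaced by 2 bases, on either strand, within the 250 bases before the RefSeq gene start (GRCm38.p6), for the 9887 genes with a promoter entry. It was found in 12 of the 18 lower interferon-stimulated genes with an entry (66.7%), in 0 of 6 that were not lower and in 2.79% of all promoters. Such a match describes letters and is not evidence of binding. The last 140 bases before the start are shown for 3 lower genes at different levels, with the matches in capitals, from chr8:71537473-71537612 (minus strand), chr11:58214837-58214976 (plus strand) and chr19:34640749-34640888 (plus strand).
Bst2: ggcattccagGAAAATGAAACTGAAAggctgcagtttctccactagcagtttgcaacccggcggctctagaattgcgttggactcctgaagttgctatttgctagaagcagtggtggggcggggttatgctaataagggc
Irgm2: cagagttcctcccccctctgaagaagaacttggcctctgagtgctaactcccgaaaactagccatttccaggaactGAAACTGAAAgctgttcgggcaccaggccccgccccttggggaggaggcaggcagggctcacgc
Ifit1: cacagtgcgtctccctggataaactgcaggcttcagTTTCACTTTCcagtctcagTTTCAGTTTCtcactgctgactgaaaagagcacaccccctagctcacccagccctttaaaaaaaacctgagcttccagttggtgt
The matches of Ifit1 lie on the other strand and so read as TTTC. Those of Bst2 overlap. Ifit1 itself read 6.39, 6.44 and 6.17 in bFGF-JB6 and 4.39 and 4.47 in RT101.

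ATF4 is a transcription factor made when amino acids run short or protein folding is disturbed, and it raises genes of amino acid transport and synthesis. Of 31 genes of this response, 24 were higher in RT101 and 3 lower (over all genes 23.2% and 21.2%), with a median of 1.41. Cth, which makes cysteine from cystathionine, read 10.87 and 11.03 in RT101 against 7.19, 7.17 and 7.31, a difference of 3.72. Chac1, which degrades glutathione, differed by 2.66, the pseudokinase gene Trib3 by 2.47, the amino acid transporter gene Slc7a5 by 2.14 and Asns, which makes asparagine, by 1.73. Atf4 itself read 12.31 and 12.36 against 11.16, 11.10 and 11.14. Among the lower members were Vldlr, one of the on/off genes, and Ddit3 at -0.53, which encodes the stress factor CHOP.

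Between colonies the same list gave 4 higher and 18 lower (over all genes 22.7% and 20.7%), with a median of -0.35. Cth differed by -0.79 there, Chac1 by -1.34, Trib3 by -1.08 and Asns by -0.25. The interaction was -4.52 for Cth and -4.0 for Chac1. The line difference of these 4 genes was therefore of opposite sign in the attached and the agar-grown cells.

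Letters of an ATF4 element, TTNCATCA on either strand, were found in 6 of 21 higher members (28.6%) and in 2.36% of all promoters. Asns, whose nutrient response element is a textbook case, is shown from chr6:7693210-7693349 (minus strand) with the match in capitals.
Asns: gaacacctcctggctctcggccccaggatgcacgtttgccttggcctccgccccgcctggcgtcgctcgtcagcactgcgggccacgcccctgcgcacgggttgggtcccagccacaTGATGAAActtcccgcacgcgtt
The match reads TGATGAAA here because it lies on the other strand.

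**Figure D5:**
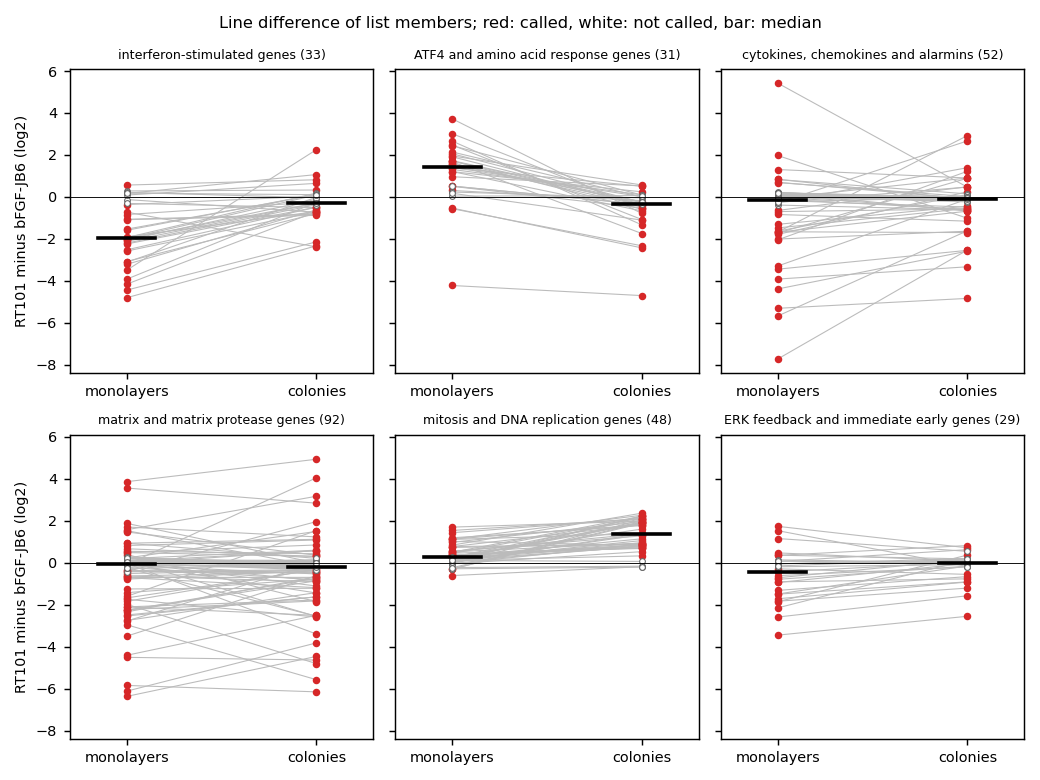
RT101 minus bFGF-JB6 log2 difference (vertical axis) of the measured members of 6 gene lists in monolayers and in colonies, 1 point per gene with a line joining its values, red where called and white where not; black bars mark medians. The median of ATF4 genes is 1.41 in monolayers and -0.35 in colonies, that of interferon-stimulated genes -1.94 and -0.30, and that of mitosis genes 0.29 and 1.36.

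Matrix and matrix protease genes were lower in 33 and higher in 15 of 92 (over all genes 21.2% and 23.2%), with a median of -0.05. Of the 18 metalloproteinase genes measured, 10 were lower and 8 were not. Besides Mmp3, Mmp10 read 8.96, 8.91 and 9.07 against 4.61 and 4.53, Mmp13 read 8.24, 8.24 and 8.02 against 4.98 and 5.45, and Mmp2, Mmp14 and Mmp9 differed by -4.51, -1.74 and -1.60. Mmp8, another collagenase gene, and Mmp11 differed by -0.03 each and did not pass (limma adjusted p = 0.908 and 0.905). Mmp1a, an interstitial collagenase gene, read 5.90, 6.43 and 6.12 against 2.68 and 2.63. Timp1, which encodes an inhibitor of these proteases, also differed, by -2.34. The basement membrane chains Col4a1 and Col4a2 differed by -2.75 and -2.23, opposite in sign to Col4a5.

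AP-1 dimers of Fos and Jun proteins bind TGANTCA, which is palindromic apart from its centre, and are known to drive these protease genes. Those letters were found in 5 of 6 lower metalloproteinase genes with a promoter entry (83.3%), in 2 of 7 that were not lower (28.6%) and in 5.51% of all promoters. The last 140 bases before the start are shown for the 4 with the largest decreases among those with an entry, all on the plus strand, from chr9:7445682-7445821, chr9:7502202-7502341, chr9:7464001-7464140 and chr9:7272374-7272513.
Mmp3: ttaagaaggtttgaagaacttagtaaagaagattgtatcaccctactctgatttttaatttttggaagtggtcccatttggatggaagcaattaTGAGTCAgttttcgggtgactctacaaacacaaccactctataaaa
Mmp10: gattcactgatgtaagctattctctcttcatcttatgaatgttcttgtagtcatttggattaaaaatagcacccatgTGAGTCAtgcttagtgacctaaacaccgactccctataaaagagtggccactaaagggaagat
Mmp1a: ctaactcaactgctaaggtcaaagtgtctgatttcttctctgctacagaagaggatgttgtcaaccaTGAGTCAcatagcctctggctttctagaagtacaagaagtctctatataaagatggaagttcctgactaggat
Mmp13: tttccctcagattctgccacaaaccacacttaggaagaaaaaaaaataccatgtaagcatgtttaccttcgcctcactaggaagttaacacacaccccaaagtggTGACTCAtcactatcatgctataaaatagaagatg
The capitals mark the AP-1 letters. Mmp3, Mmp1a and Mmp10 are also next to each other on the chromosome among the genes measured.

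Genes that ERK signalling induces, among them the AP-1 genes, were lower in 16 and higher in 6 of 29 (over all genes 21.2% and 23.2%). Their median was -0.44. ERK signalling carries the bFGF signal from its receptors. Fos read 8.16, 8.11 and 8.20 against 6.05 and 5.97, Junb differed by -1.71, the ERK phosphatase gene Dusp6 by -1.32 and the cytokine gene Il11 by -3.45. The higher members included Myc, Plaur at 1.53, Etv5 at 1.16, and the AP-1 genes Fosl1 at 0.47 and Jun at 0.36. A second Fosl1 probe set was not called, Etv5 was not called without RT101 monolayer replicate 2 (0.90, limma adjusted p = 0.0709), nor was Jun without RT101 monolayer replicate 1 (0.34, limma adjusted p = 0.0655). Fgfr1, a main bFGF receptor, read 10.19, 9.74 and 9.71 against 7.38 and 7.44, a difference of -2.47. Fgf2, the gene of bFGF itself, was in the lower part of the scale, at 3.37, 4.06 and 4.24 against 3.66 and 3.65, and did not pass the test (-0.23, limma adjusted p = 0.462). It passed without the arrays of raised 3' signal, at -0.49 (limma adjusted p = 0.0265).

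Cytokines, chemokines and alarmins were lower in 20 and higher in 7 of 52 (over all genes 21.2% and 23.2%). The colony-stimulating factor gene Csf3 differed by -5.31, the antimicrobial protein gene Lcn2 by -5.68 and the chemokine gene Ccl8 by -4.39. Besides Ptx3, the higher members included the chemokine genes Cxcl12 at 1.97, Cxcl10 at 1.30, Cxcl5 at 0.84 and Cxcl1 at 0.83. Csf1 was higher by 0.70 on its brightest probe set, while 2 of its other 3 probe sets were not called. Between colonies Cxcl10 differed by 0.90 and Cxcl12 by -1.02. Growth factors and receptors were lower in 23 and higher in 13 of 85, with Btc (betacellulin) at -3.45, Vegfc at -3.11 and Hgf at -2.74. Hgf spread widely in bFGF-JB6, at 6.39, 7.61 and 7.71.

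Adhesion genes were lower in 21 and higher in 12 of 64 (over all genes 21.2% and 23.2%). At 2-fold 14 were lower and 6 higher. Among the lower, Alcam read 10.25, 10.12 and 10.24 against 7.21 and 7.51. The integrin genes Itga5, Itgb1 and Itgb7 differed by -1.38, -1.29 and -2.30. The ephrin gene Efnb2, counted with growth factors and receptors, differed by -2.90. Drug and antioxidant metabolism genes were lower in 25 and higher in 12 of 59, Mgst2 among the lower at -3.89. Wnt, Notch and Hedgehog genes were 6 higher and 6 lower of 61, with Ror2 at 1.34 and Wnt5a, which can signal through it, at 0.89, and Notch3 at -1.28.

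Mitosis and DNA replication genes were higher in 25 and lower in 3 of 48 (over all genes 23.2% and 21.2%), with a median of 0.29. Pola1, the catalytic subunit of DNA polymerase alpha, read 8.57 and 8.51 in RT101 against 6.80, 6.83 and 6.87. Ccna2 (cyclin A2) differed by 1.44. Ccnd1 (cyclin D1), which growth factors induce, was lower, at 10.43 and 10.63 against 12.02, 11.94 and 12.10. Between colonies 44 of the 48 mitosis genes were higher in RT101, where 22.7% of all genes were, with a median of 1.36.

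Genes of cell cycle arrest and the p53 response were 12 higher and 9 lower of 36 (over all genes 23.2% and 21.2%). Cdkn1a (p21) read 9.56 and 9.46 in RT101 against 11.49, 11.37 and 11.39, a difference of -1.91. Btg2, Trp53inp1 and Mdm2, all targets of p53, differed by -2.87, -2.49 and -1.37, while the target Gadd45a differed by 1.77. Cdkn2a, the INK4A and ARF locus, read 2.53 to 2.98 on all 5 arrays. Pdcd4, a translation inhibitor studied as a tumour suppressor in JB6 cells, was higher in RT101, at 7.40 and 7.41 against 6.85, 6.93 and 6.90 (0.51, limma adjusted p = 0.0008). Trp53 was not analysed here.

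Genes that lie next to each other in the RefSeq gene order were also looked at together, after their values were seen. Of 12377 genes with a place, 42 lay in 13 runs of 3 or more measured neighbours that were each called at least 2-fold lower, and 19 in 6 runs called higher. One run held the receptor genes Il10rb, Ifnar1 and Ifngr2 with Tmem50b, at -1.11, -1.09, -1.73 and -1.61. Another held Ifitm2, Ifitm1, Ifitm3 and Ifitm6, a family of antiviral membrane proteins, at -1.39, -2.02, -1.66 and -4.08. Members of that family resemble each other, so their probe sets may share signal. No run consisted of on/off genes.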

How the data were processed

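RNA of 11 mouse samples was measured, each on its own Affymetrix array. The deposited values are log2 signals; the submitters' processing notes name RMA, without a version. RMA corrects background, brings arrays to a common distribution and summarises probes, so folds that start or end at the bottom of the scale are compressed. Scanner settings are not given in the sources used here. Array signals have no counts behind them, so precision is limited by how many arrays there are.

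Of 22690 probe sets, 64 were controls, 20380 named 1 gene, 691 several and 1555 none. Each of 12393 genes (4956 had more than 1 probe set) was read from its brightest one, by the mean of the 11 arrays, and 20351 of the single-gene probe sets matched the RefSeq gene table. The named genes had 166 further probe sets, of which 114 were called in the same direction as the brightest, 51 were not called and 1, for Phex, was called opposite. Those not called include probe sets of Id2, Sox4, Sox5, Tbx3, Foxo1, Foxp1, Rora, Efnb2, Itgb1, Ncam1, Plagl1 and Wnt5a. Values were used as deposited. One limma 3.58.1 model (R 4.3.3) was fitted to all 11 arrays with group as its only term and eBayes variances (7 residual and 6.12 prior degrees of freedom). Its contrasts were RT101 minus bFGF-JB6 in monolayers, the same in colonies, and the difference between them. Adjusted p-values are Benjamini-Hochberg over all genes, and SE is moderated.

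Members, lists and rules were chosen with earlier results of these data known. Genes named by rule were the 12 largest called non-overlapping differences per direction, on/off genes of the regulator lists, up to 5 called members per list by size and a few preset genes such as Fgf2, Fgfr1 and Cdkn1a. The other 81 genes looked at by name, the remaining on/off genes among them, were chosen after their values were seen, as were genes named only through a run of neighbours. Promoter sequences are RefSeq's, build GRCm38.p6, the first window listed for a gene.

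Alternatives were a replicate block, other probe set rules, median centring, loess, another variance model, monolayers alone, other on/off levels, a 2-fold minimum and each array left out. One more, leaving out the arrays of raised 3' signal, was chosen after seeing the data. Plots used matplotlib 3.10.9.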

Additional observations from a re-analysis of the deposited data

Results flagged for a closer look

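For 46 of the 231 named genes the line difference (RT101 minus bFGF-JB6) in colonies departed from that in monolayers by at least 4-fold with a limma adjusted p of 0.05 or less for the interaction. Many of the 231 were named for their monolayer difference, which enters the interaction, so the count carries no weight on its own. Over all genes 27.7% were called for the interaction with no fold minimum, and the share at 4-fold was not counted. Values below are colony minus monolayer line differences on the log2 scale, over 6 colony and 5 monolayer arrays.

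The first kind was higher in RT101 monolayers and less so, or not, in RT101 colonies. Secreted and peptide genes led, with Car6 at -6.89, Calcb at -6.11 and Ptx3 at -4.96. Regulators were at -3.60 for Taf7l, -3.27 for Dach2 and -2.51 for Snai2, and the chemokine gene Cxcl12 was at -2.99. Stress and amino acid genes were at -4.52 for Cth, -4.0 for Chac1, -3.55 for Trib3, -3.53 for Stbd1, -3.38 for Gadd45a and -2.14 for Slc7a5. Of these, Cth, Chac1, Trib3, Stbd1, Gadd45a, Taf7l, Snai2 and Cxcl12 were called lower in RT101 colonies.

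The second kind was lower in RT101 monolayers and still lower in colonies. It held Mmp13 at -2.62, Scg2 at -2.59, Prl8a9 at -2.38 and Cd68 at -2.06. Mmp11, at -3.36, was not called between monolayers and was lower in RT101 colonies.

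The third kind was lower in RT101 monolayers and less so in colonies. Interferon-stimulated genes were at 5.75 for Ifi27l2a, 3.66 for Rtp4, 3.46 for Oasl2, 3.09 for Oas2, 2.47 for Usp18, 2.30 for Bst2 and 2.29 for Oas1a. Secreted and inflammatory genes were at 5.20 for Il33, 5.12 for Pi16, 4.07 for Lcn2, 2.95 for Btc, 3.14 for Mmp9, 2.89 for Mmp1a and 2.82 for Ptges. Regulators and growth-response genes were at 2.34 for Btg2, 2.29 for Fos, 2.23 for Egr2, 2.23 for Prrx2 and 2.21 for Id1. Surface, matrix and other genes were at 2.50 for Sumo3, 2.42 for Pcdh7, 2.38 for Col3a1, 2.30 for Dcn, 2.30 for Gap43, 2.26 for Mgst2, 2.21 for Itgbl1, 2.09 for Alcam and 2.05 for Fabp4. Ifi27l2a, Col3a1, Mmp9, Egr2 and Prrx2 were called higher in RT101 colonies. Sumo3 rests on its brightest probe set, since the other was dim and did not pass (0.08).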

How the results depend on the processing

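No named gene called here changed sign under an alternative that was run. Over all genes, averaging a gene's probe sets turned the sign of 6 called genes, none of them named. Testing all single-gene probe sets gave 4489 higher and 3949 lower, and a 2-fold minimum gave 660 and 858. Without 1 array at a time there were 2396 to 2753 higher and 2211 to 2536 lower genes. Median centring gave 3141 and 2388, and loess 2677 and 2875. With loess, lower genes thus outnumbered higher ones, the reverse of the main fit (2881 and 2623). The on/off counts of 7 and 24 depended on their levels: 2 and 9 with the upper quartile as the on level, 24 and 77 with the 35th percentile as the off level, and 0 and 4 among genes above the median level, which leaves out dim genes by construction. Over all single-gene probe sets 46 were on in bFGF-JB6. Those with the same call between colonies numbered 10, 92, 4 and 53 in that order of settings. With 1 array left out the on/off counts were 7 to 9 and 24 to 33. For monolayers with the same replicate number in the titles, correlations of deviations were -0.031 and -0.174. Those with the same letter in the descriptions gave 0.174 and 0.148 over only 2 pairs, with -0.276 to 0.32 over all groups. The deviations of 2 RT101 monolayer arrays from their mean are equal and opposite, so these signs cannot decide whether the monolayers were paired. With a replicate block the counts were 2820 and 2571 by title and 2847 and 2519 by letter, with 7 and 24 on/off genes in both.

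Among lists, genes above the median level gave 8 lower interferon-stimulated genes and 6 zinc finger, 6 homeobox and 4 Hox genes higher. A 2-fold minimum gave 12 fibroblast, 14 drug metabolism, 9 ERK and 7 bHLH genes lower, and 8 mitosis, 7 zinc finger, 2 homeobox and 2 Hox genes higher. Zinc finger genes higher ran from 11 to 16 with 1 array left out. Of 3372 alternative values of named genes, 3239 kept direction and call, 86 lost the call (42 of them under the 2-fold minimum), 16 gained it and 31 uncalled ones changed sign. Calls lost with 1 array left out were those of Col11a2, Col17a1, Col9a1, Etv5, Hoxd9, Itgb4, Jun, Kdr, Klf5, Lcp2, Matn2, Myh11 and Pdgfra. Values near the bottom of the scale understate folds.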

Other observations

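Promoters of genes on in bFGF-JB6 held few CG pairs. Over the 250 bases before the RefSeq start, 18 of the 24 genes with an entry had a median of 4.0 CG pairs (0 to 25), against 14 over the 9887 genes with an entry. The 5 of 7 genes on in RT101 with an entry also had a median of 14 (10 to 39). Genes at least 4-fold lower had a median of 9.0 (194 genes) and those at least 4-fold higher one of 14.5 (64 genes). These counts describe sequence and carry no test.

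The longest run of neighbouring genes called at least 2-fold higher in RT101 monolayers held Morc4, Prps1, Tsc22d3 and Mid2, at 2.09, 1.92, 2.10 and 1.51. Tsc22d3 encodes GILZ, a target of the glucocorticoid receptor, whose gene Nr3c1 was higher by 1.77. Between colonies Prps1, Tsc22d3 and Mid2 were called at 1.28, 0.84 and 1.17, and Morc4 was not (0.22, limma adjusted p = 0.282).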
